A study of Mus musculus with 4 samples.

Results

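Genes of the transforming growth factor beta (TGF-beta) pathway were examined in the ventricle of mice that overexpressed serum response factor (SRF). The 10 genes were the ligands Tgfb1, Tgfb2 and Tgfb3, the ligand-binding matrix protein Ltbp4, the inhibitory SMADs Smad6 and Smad7, the helix-loop-helix genes Id1, Id2 and Id3, and the secreted glycoprotein Fstl1. Every probe set (the group of oligonucleotides on the array that reads 1 transcript) whose platform annotation gave exactly 1 gene symbol, with that symbol among the 10, was taken. That gave 10 of the 8251 genes with such a probe set, and 11 of the 12422 probe sets that were not controls, with a second, dim one for Tgfb3. The genes were chosen by their known role and with their signal difference between these same groups in view, so their calls describe the data and are not independent evidence.

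Total RNA of ventricle from mice at 6 months of age was hybridised to Affymetrix arrays, 1 array per sample, with 2 samples of non-transgenic mice (non-transgenic replicates 1 and 2) and 2 of transgenic mice with moderate, heart-restricted SRF overexpression (transgenic replicates 1 and 2). The labels name neither the promoter behind the transgene nor the strain, and both groups shared age and tissue. Srf is not analysed here, so its overexpression could not be checked. Whether each sample was 1 animal is not stated either, and every p-value therefore measures the spread between these arrays, which may be technical.

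TGF-beta ligands leave the cell bound in a latent complex, which latent TGF-beta binding proteins such as Ltbp4 anchor in the matrix. Once released, a ligand joins serine/threonine kinase receptors that phosphorylate SMAD proteins, and these enter the nucleus and regulate target genes. Smad6 and Smad7 block the receptors or the SMADs and are themselves induced by the pathway, while Id genes are typical targets of its bone morphogenetic protein (BMP) branch. In the heart the pathway is best known for fibroblast activation, matrix deposition and valve formation.

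Of the 10 member probe sets that passed the filter on low values, 6 rose in transgenic ventricle (Tgfb3, Id2, Fstl1, Smad7, Smad6 and Ltbp4), 0 fell, and Tgfb2, Id3, Id1 and Tgfb1 did not pass the test. The test was limma on log2(signal + 9) with Benjamini-Hochberg adjustment over all 7453 probe sets tested, at an adjusted p below 0.05. Over all of them, 4.07% were called higher and 3.86% lower, and the choice of members with this contrast known fixes how the member count compares with that. The median log2 difference of the tested members was 0.77, against -0.01 over all tested probe sets. The lower transgenic array was above the higher non-transgenic array for all 10, an order found in 27.8% of tested probe sets (the opposite order in 28.1%). The count of 6 was 3 without non-transgenic replicate 2, 2 without transgenic replicate 1 and 3 without transgenic replicate 2. It was 1 (Tgfb3) when limma used no trend of variance on signal. An ordinary two-sample test called 0 of the 10 after adjustment, with 7 at an unadjusted p below 0.05.

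**Figure D1:**
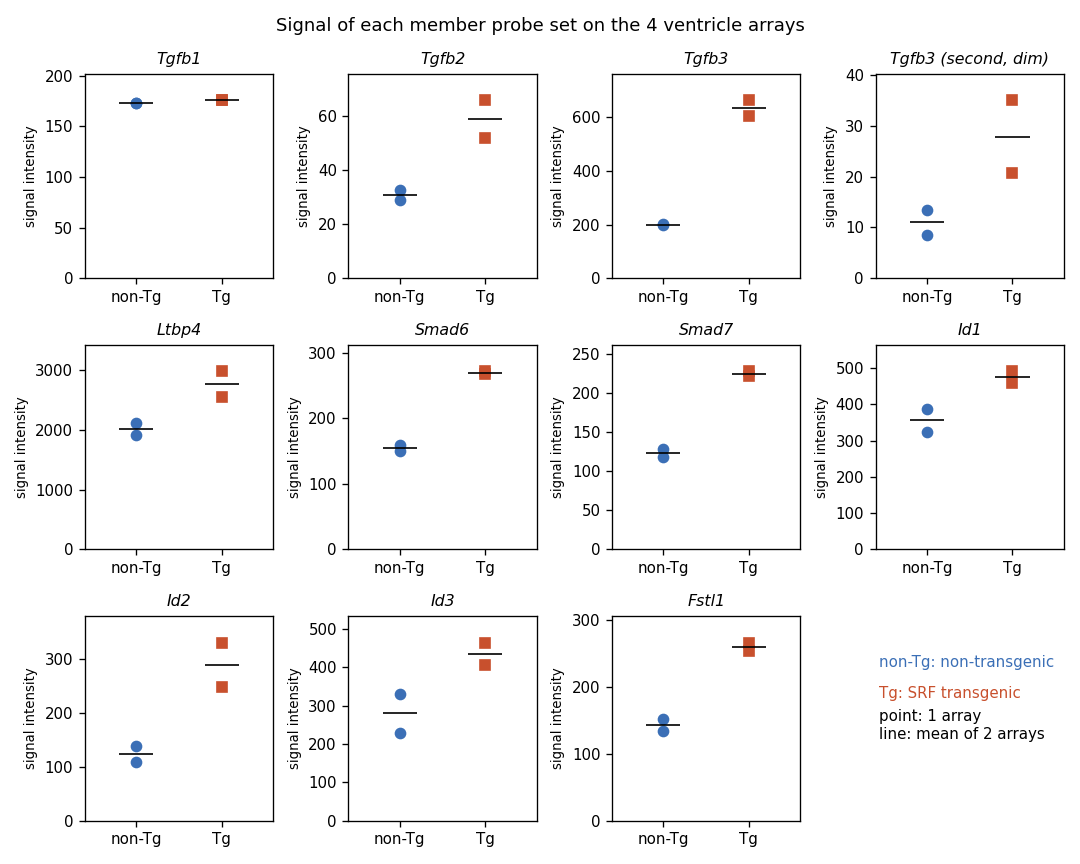
Signal intensity (vertical axis, linear from 0, its range set separately for each panel) of the 11 member probe sets in non-transgenic (blue circles) and transgenic (red squares) ventricle, 1 point per array with a line at the mean of 2 arrays. Transgenic arrays lie above non-transgenic ones in every panel, from 173.2 and 173.1 against 175.7 and 175.8 for Tgfb1 to 202.0 and 197.8 against 663.5 and 604.9 for the brighter Tgfb3 probe set.

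Over the whole table, 303 probe sets were higher and 288 lower in transgenic ventricle, and 51.3% of the calls were higher ones (66.8% after centring each array on its median). Without transgenic replicate 1 the counts were 125 and 171, without transgenic replicate 2 183 and 191, without non-transgenic replicate 1 218 and 183, and without non-transgenic replicate 2 232 and 158. Array medians lay between 49.0 and 53.9, so no array stood apart in brightness. Cardiac myocyte markers were bright on every array (974 to 13266 over 9 probe sets), with 5 lower and 0 higher. Summed signals of fibroblast markers were 7761 to 7809 in non-transgenic and 12090 to 12494 in transgenic ventricle. Of 13 tested probe sets 7 were higher and 0 lower, 11 had a difference above 0, and the median log2 difference was 0.59. The brightest Pdgfra probe set read 523.0 and 391.1 against 331.9 and 298.3 and did not pass (limma, adjusted p = 0.106). A dimmer one had a difference of 0.75 and did not pass either. Summed signals of macrophage markers were 2237 to 2539 and 3711 to 3722, with 4 of 9 higher and 0 lower. Endothelial markers summed to 3726 to 3763 and 3975 to 3977, with 1 of 10 higher (Eng) and 1 lower (Tie1). The bright Eng (1330.9 and 1193.8 against 1741.3 and 1780.2) weighs most in that sum. Of the 10 tested endothelial probe sets 3 had a difference above 0, and their median log2 difference was -0.11. Smooth muscle markers summed to 1516 to 1537 and 2771 to 2825, with 1 of 5 higher (Acta2) and a median log2 difference of 0.16. Most of the rise of that sum was Acta2 (396.7 and 430.6 against 1478.2 and 1539.0). Atrial markers summed to 981 to 1098 and 2964 to 3257, with 2 of 4 higher (Nppa and Myl7). Most of the rise of that sum was Nppa (460.9 and 411.9 against 2023.7 and 1879.2). The Myl4 probe sets had log2 differences of 0.10 and 0.92 and did not pass. Hepatocyte markers fell, from sums of 2494 and 4691 to sums of 149 and 178, with 6 of 7 lower. Adipocyte markers summed to 514 to 665 and 310 to 340, with 1 of 3 lower. Skeletal muscle markers summed to 4350 to 4677 and 5953 to 6546, with 1 of 6 higher (Acta1) and 2 lower. The rise of that sum was that of Acta1 (3040.2 and 3018.5 against 5716.1 and 5177.3). Only 1 of the 6 had a difference above 0, and their median log2 difference was -0.50. No marker was listed at 0. The part of any of these cell types in the member differences was not tested, and in bulk ventricle a change in the number of cells of a type and a change in RNA per cell cannot be told apart.

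Promoter windows, from 250 bases before to 50 bases after the transcription start, were in the RefSeq table (build GRCm38.p6) for 7 of the 10 members. Entries for Tgfb3, Smad7 and Id1 were missing. The CArG box, the element that SRF binds, was searched only as CCWWWWWWGG, where W is A or T. It was not matched in any of the 9 windows of those 7 genes, and 1.63% of all 32851 windows in the table hold one. Variants of that pattern were not searched. The SMAD box CAGAC, searched on both strands, was matched in Tgfb2 and Id3 and is held by 49.6% of all windows. The palindrome GGCGCC, a GC-rich element that SMADs of the BMP branch bind, was matched in Id2 and in overlapping Ltbp4 windows and is held by 11.9% of all windows. G and C made up 54.3% to 81.3% of the bases of member windows, against a median of 52.7% over all windows. Matches are descriptions of letters, not binding sites, and the motifs did not overlap one another in these windows. The 250 bases before the start are shown 5′ to 3′ on the strand of the gene for the 4 genes with a match, with the matched letters in capitals. They are Tgfb2 (chr1:186705990-186706239, minus strand), Ltbp4 (chr7:27333649-27333898, minus strand), Id2 (chr12:25096093-25096342, minus strand) and Id3 (chr4:136143572-136143821, plus strand).
Tgfb2: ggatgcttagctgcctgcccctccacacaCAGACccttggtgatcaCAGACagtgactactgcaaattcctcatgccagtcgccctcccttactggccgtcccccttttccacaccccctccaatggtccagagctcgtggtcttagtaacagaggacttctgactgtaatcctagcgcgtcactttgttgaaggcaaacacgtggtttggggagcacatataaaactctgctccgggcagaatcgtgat
Ltbp4: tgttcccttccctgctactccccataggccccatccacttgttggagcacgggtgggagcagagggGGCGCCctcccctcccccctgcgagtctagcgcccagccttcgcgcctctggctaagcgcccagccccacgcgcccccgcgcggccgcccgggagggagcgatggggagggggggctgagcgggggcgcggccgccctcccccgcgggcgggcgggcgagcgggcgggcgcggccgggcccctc
Id2: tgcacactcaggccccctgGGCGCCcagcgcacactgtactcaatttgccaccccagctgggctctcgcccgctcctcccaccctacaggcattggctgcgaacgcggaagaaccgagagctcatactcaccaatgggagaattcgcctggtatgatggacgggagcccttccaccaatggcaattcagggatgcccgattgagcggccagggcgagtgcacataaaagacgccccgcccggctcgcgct
Id3: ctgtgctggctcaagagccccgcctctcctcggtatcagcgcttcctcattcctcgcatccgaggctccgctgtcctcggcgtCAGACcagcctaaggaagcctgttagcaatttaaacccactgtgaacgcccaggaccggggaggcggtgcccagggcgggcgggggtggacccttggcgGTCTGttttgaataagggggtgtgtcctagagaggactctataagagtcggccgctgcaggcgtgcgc
The CAGAC matches of Tgfb2 began 221 and 204 bases before the start, and those of Id3 began 167 and 68 bases before it, the latter on the opposite strand. The GGCGCC match of Id2 began 231 bases before the start and that of Ltbp4 184 bases before it. Id2 and Ltbp4 were called higher, and Tgfb2 and Id3 were not called. Of the members with a window but no match, Smad6 and Fstl1 were called higher and Tgfb1 was not called.

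Among the ligands, Tgfb3, an isoform known from palate and heart valve development and from scar tissue, had the largest difference of all members. Its brighter probe set gave 202.0 and 197.8 in non-transgenic and 663.5 and 604.9 in transgenic ventricle. The groups were far apart, with the lower transgenic array 2.99 times the higher non-transgenic one, and the arrays within a group lay close together. The log2 difference was 1.62 ± 0.12 (SE, n = 2 arrays per group), a 3.08-fold rise (limma, adjusted p = 0.000616). It ranked 28th of 7453 among rises. The call held without any 1 of the 4 arrays (adjusted p from 0.000490 to 0.00286 in limma), and ended in the ordinary test (adjusted p = 0.189). The second Tgfb3 probe set gave 8.5 and 13.5 against 20.7 and 35.1, a log2 difference of 0.87 that lay below the filter on low values and was not tested. With every probe set kept, its adjusted p in limma was 0.250.

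Tgfb2, the isoform of endocardial cushions and of stressed myocardium, was dim, with 32.5 and 28.7 in non-transgenic and 51.8 and 65.7 in transgenic ventricle. Both transgenic values were higher, but the transgenic arrays differed from each other more than the non-transgenic ones did. Its log2 difference of 0.77 ± 0.24 did not pass (limma, adjusted p = 0.106), with a 95% interval from 0.21 to 1.33 before adjustment.

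Tgfb1, the isoform most often tied to cardiac fibrosis and the one most released by platelets and macrophages, read 173.2 and 173.1 in non-transgenic and 175.7 and 175.8 in transgenic ventricle. All 4 arrays lay within a narrow band, and although the groups did not overlap, their means were 1.01-fold apart. The log2 difference was 0.02 ± 0.13 with a 95% interval from -0.30 to 0.34 before adjustment. A change of its RNA within that interval is not excluded. Limma left it uncalled (adjusted p = 0.948). The ordinary test, which uses the closeness of these 4 values alone, gave an adjusted p of 0.163, the same as for Ccn2 and Acta2. That test called 0 probe sets in either direction, so its lack of a call for Tgfb1 says nothing about the size of a change. The 3 ligands therefore stood at log2 differences of 0.02, 0.77 and 1.62. Differences between the ligands were not tested, since the contrast had chosen them.

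Ltbp4, which tethers latent TGF-beta and helps assemble elastic fibres, read 2110.3 and 1915.8 in non-transgenic and 2977.3 and 2553.5 in transgenic ventricle. The spread within each group was wide relative to the gap between the groups, where the lower transgenic array was 1.21 times the higher non-transgenic one. It rose by 0.45 ± 0.10 on the log2 scale, or 1.37-fold (limma, adjusted p = 0.0372). The call ended without non-transgenic replicate 1 (limma, adjusted p = 0.0533), non-transgenic replicate 2 (0.112) or transgenic replicate 1 (0.144), and with every probe set kept (0.0909).

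The inhibitory SMADs rose to a like extent. Smad6, which acts chiefly on the BMP branch, read 159.7 and 150.3 in non-transgenic and 267.0 and 271.6 in transgenic ventricle. Smad7, which acts on TGF-beta and BMP receptors alike and recruits ubiquitin ligases to them, read 117.8 and 128.6 against 227.2 and 221.4. In both genes the arrays of a group lay far closer to each other than the groups did. The rise was 0.76 ± 0.13 (1.70-fold) for Smad6 and 0.82 ± 0.14 (1.77-fold) for Smad7 on the log2 scale, and limma gave each an adjusted p of 0.0177. Smad6 lost its call without non-transgenic replicate 2 (limma, adjusted p = 0.0513), transgenic replicate 1 (0.0652) or transgenic replicate 2 (0.0636). Smad7 lost it without transgenic replicate 1 (limma, adjusted p = 0.0733) or transgenic replicate 2 (0.0540).

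The Id genes encode helix-loop-helix proteins without a DNA-binding region, which hold E proteins away from DNA. Id2 rose, and it was the member with the second largest difference. It read 108.9 and 138.2 in non-transgenic and 330.0 and 247.4 in transgenic ventricle. The arrays within each group were spread widely, but the lower transgenic array was 1.79 times the higher non-transgenic one. The log2 difference was 1.16 ± 0.19, or 2.24-fold (limma, adjusted p = 0.0155), and the call held without any 1 of the 4 arrays (adjusted p from 0.00775 to 0.0485 in limma).

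Id3 read 329.2 and 229.7 against 464.2 and 407.0. Non-transgenic replicate 1 stood well above replicate 2, and both were below the transgenic arrays. The log2 difference of 0.64 ± 0.18 missed the threshold (limma, adjusted p = 0.0829). Without non-transgenic replicate 1 it was 0.89 and passed (limma, adjusted p = 0.0259), and without non-transgenic replicate 2 it was 0.39 (adjusted p = 0.181).

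Id1, the classical BMP-responsive Id gene, read 387.6 and 324.3 against 490.8 and 459.6. Here too the groups did not overlap, with the lower transgenic array 1.19 times the higher non-transgenic one. The log2 difference of 0.41 ± 0.13 did not pass (limma, adjusted p = 0.105), with a 95% interval from 0.11 to 0.71 before adjustment. The 95% interval of Id2 ran from 0.71 to 1.61 before adjustment. The difference between Id1 and Id2 was not tested, since the contrast had chosen both.

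Fstl1, a secreted glycoprotein of the SPARC and follistatin-related family that was first cloned as a TGF-beta-induced gene, read 152.6 and 134.0 in non-transgenic and 254.5 and 266.4 in transgenic ventricle. The lower transgenic array was 1.67 times the higher non-transgenic one. The rise was 0.83 ± 0.14 on the log2 scale, or 1.77-fold (limma, adjusted p = 0.0174). It lost its call without non-transgenic replicate 2 (limma, adjusted p = 0.0513), transgenic replicate 1 (0.0537) or transgenic replicate 2 (0.0599).

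**Figure D2:**
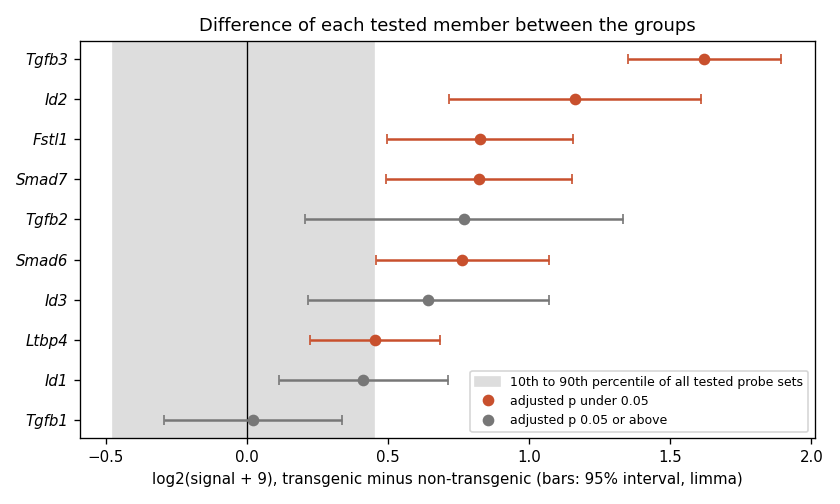
Difference in log2(signal + 9) between transgenic and non-transgenic ventricle (horizontal axis) for the 10 tested member probe sets, with 95% intervals from limma (2 arrays per group, not adjusted for the number of probe sets) and the 10th to 90th percentile of all 7453 tested probe sets shaded (-0.47 to 0.45). Tgfb3 lies highest at 1.62, Tgfb1 lies at 0.02, and Id1 at 0.41 falls inside the shaded range.

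In the order of their log2 differences the members were Tgfb3, Id2, Fstl1, Smad7, Tgfb2, Smad6, Id3, Ltbp4, Id1 and Tgfb1. From Fstl1 to Id3 the values ran from 0.83 to 0.64 with standard errors of 0.13 to 0.24, so neighbours in that stretch have no settled order.

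The 3 probe sets of other genes whose pattern over the 4 arrays was most like that of Tgfb3 were those of Fhl1, Ndrg4 and Casq1. Likeness was the Euclidean distance between log2 profiles, each centred on its own mean, and was 0.05, 0.16 and 0.18. Fhl1, a LIM protein of stressed myocardium, read 485.8 and 471.4 against 1503.0 and 1396.7. Ndrg4, an NDRG family gene of heart and brain, read 377.1 and 414.2 against 1415.8 and 1226.9, and Casq1, the skeletal muscle calsequestrin, 1062.2 and 1068.8 against 2955.7 and 3036.4. With 4 arrays in 2 groups, this likeness reflects little more than the size of the difference between the groups.

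Other genes of the pathway were taken from 8 lists by role, which held 114 genes. Of these, 97 had a probe set, and 77 probe sets of 62 genes passed the filter on low values. In all 14 were higher, 1 was lower and 62 did not pass, and 10 of the higher ones were TGF-beta target genes. Over all tested probe sets, 4.07% were called higher and 3.86% lower. The median log2 difference over the 8 lists was 0.17, against -0.01 over all tested probe sets.

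Of 9 tested probe sets of other ligands of the superfamily, 0 were higher, 1 was lower and 8 did not pass (median log2 difference 0.17). The lower one was Inhbc, which encodes the inhibin beta C chain and is expressed chiefly in liver. It read 94.0 and 92.0 in non-transgenic and 43.1 and 47.8 in transgenic ventricle, a fall of 0.91 ± 0.19 on the log2 scale (limma, adjusted p = 0.0339). The hepatocyte markers, which also fell, summed to 2494 and 4691 on non-transgenic replicates 1 and 2, and the part of liver RNA in the fall of Inhbc was not tested. Its call ended without any 1 of the 4 arrays (adjusted p from 0.0816 to 0.138 in limma). Inha, which encodes the inhibin alpha chain, read 16.8 and 60 against 72.3 and 68.6 and did not pass (limma, adjusted p = 0.25), but passed as higher without non-transgenic replicate 2 (limma, adjusted p = 0.0225). Bmp4, a BMP ligand, read 140.9 and 131.1 against 159.2 and 148.3 (limma, adjusted p = 0.531).

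Of 7 tested probe sets for latency and activation of TGF-beta, 0 passed in either direction in limma, and 1 had an unadjusted p below 0.05 (median log2 difference 0.17). That 1 was for Itgav, the integrin alpha V chain that helps free latent TGF-beta, with 336.2 and 348.3 against 399.1 and 444.0 (log2 difference 0.29 ± 0.12, limma, adjusted p = 0.182). The other binding proteins tested, Ltbp2 (0.60 ± 0.28) and Ltbp3 (-0.14 ± 0.19), did not pass either.

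Among the receptors 1 of 9 tested probe sets was higher and 0 were lower (median log2 difference 0.11). Endoglin (Eng), a co-receptor of endothelial cells that favours BMP-type signalling, read 1330.9 and 1193.8 in non-transgenic and 1741.3 and 1780.2 in transgenic ventricle. The groups were apart, and the rise was 0.48 ± 0.09 on the log2 scale, or 1.39-fold (limma, adjusted p = 0.0225). It ended without non-transgenic replicate 2 (limma, adjusted p = 0.0683), transgenic replicate 1 (0.0632) or transgenic replicate 2 (0.0698). Of the other 9 tested endothelial marker probe sets, 0 were higher and 1 was lower. Acvrl1, the endothelial type I receptor that works with endoglin, had 3 tested probe sets with log2 differences from -0.02 to 0.13, none of which passed. Probe sets for the TGF-beta receptors Tgfbr1 and Tgfbr2 read between 2.0 and 14.1, below the filter, and were not tested.

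Of 4 tested probe sets (3 genes) for signalling SMADs, 0 passed in limma and 1 had an unadjusted p below 0.05. All 4 differences were above 0 (median 0.26), where 48.7% of all tested probe sets were. Smad3 (log2 difference -0.43) and Smad5 (-0.05) lay below the filter on low values, had overlapping groups and were not tested. Smad2, which carries the TGF-beta signal, had the smallest p, with 81.3 and 71.0 against 125.0 and 113.3 (log2 difference 0.59 ± 0.17, limma, adjusted p = 0.0908). The shared partner Smad4 read 288.5 and 360.6 against 317.0 and 339.8, with overlapping groups.

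Among other inhibitors and ligand traps, 1 of 9 tested probe sets was higher and 0 were lower (median log2 difference 0.15). Decorin (Dcn), a matrix proteoglycan that binds TGF-beta and is a fibroblast marker, read 3203.6 and 3176.6 against 4665.1 and 4569.3. It rose by 0.53 ± 0.06 on the log2 scale, or 1.45-fold (limma, adjusted p = 0.00507), and kept its call without any 1 of the 4 arrays.

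TGF-beta target genes rose in 10 of 26 tested probe sets, with 0 lower and 16 not past the test (median log2 difference 0.52). Several of these rises were known when the list was written, so the count is a description. Without transgenic replicate 1 it was 6. The 10 probe sets stood for 10 genes: Ccn2, Postn, Acta2, Bgn, Col1a1, Klf10, Timp1, Cdkn1a, Col1a2 and Col3a1. The summed signal of fibroblast markers, which share Postn, Col1a1, Col1a2 and Col3a1 with this list, rose alongside, and its part in the target genes was not tested. The parts of TGF-beta signalling and of the overexpressed SRF itself in these rises were not tested either. Timp1, an inhibitor of matrix metalloproteinases, read 130.0 and 152.4 against 280.1 and 263.9, a rise of 0.91 ± 0.14 on the log2 scale (limma, adjusted p = 0.0144). It lost the call without transgenic replicate 1 (limma, adjusted p = 0.0553). Klf10, a zinc finger repressor induced early by TGF-beta, read 75.9 and 57.0 against 147.0 and 120.5 (0.93 ± 0.20, limma, adjusted p = 0.0384). Its second probe set gave 0.48 ± 0.14 and did not pass (limma, adjusted p = 0.0956). Cdkn1a, the cell cycle inhibitor p21, read 60.9 and 75.3 against 146.3 and 119.9 (0.88 ± 0.19, limma, adjusted p = 0.0376), while its second probe set overlapped between groups (0.23 ± 0.24).

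Klf10 lost its call without non-transgenic replicate 2 (limma, adjusted p = 0.0999), transgenic replicate 1 (0.182) or transgenic replicate 2 (0.0586), and Cdkn1a without non-transgenic replicate 1 (0.0997), transgenic replicate 1 (0.193) or transgenic replicate 2 (0.0597). The collagen chain Col3a1 lost it without non-transgenic replicate 2 (limma, adjusted p = 0.0863) or transgenic replicate 1 (0.125). The matricellular gene Ccn2, periostin (Postn), smooth muscle actin (Acta2), biglycan (Bgn), Col1a1 and Col1a2 kept their calls without any 1 of the 4 arrays. Second probe sets of Bgn, Col1a1, Col1a2 and Col3a1 did not pass, and that of Col1a2 had a difference of -0.17. Other targets did not pass, among them fibronectin (Fn1, -0.02 ± 0.15), the smooth muscle gene Tagln (0.16 ± 0.13) and Junb (0.00 and 0.02 for its 2 probe sets). Counts and medians by role are drawn in the plot of the pathway lists.

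**Figure D3:**
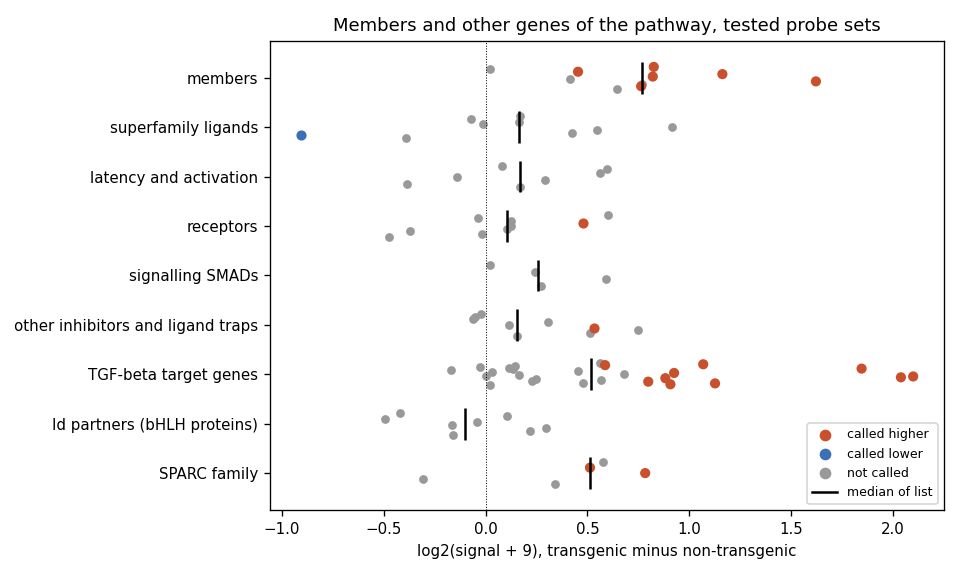
Difference in log2(signal + 9) between transgenic and non-transgenic ventricle (horizontal axis) for the tested probe sets of the members and of 8 lists of other pathway genes, 1 point per probe set, with a vertical bar at the median of each list and vertical scatter only to separate points. Red points were called higher and the blue point (Inhbc, -0.91) lower. The members have a median of 0.77, the target genes 0.52 and the bHLH partners of Id proteins -0.10.

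Of 8 tested probe sets for Id4 and the basic helix-loop-helix (bHLH) proteins with which Id proteins interact, 0 passed in either direction in limma, and 1 had an unadjusted p below 0.05 (median log2 difference -0.10). Hand2, a transcription factor of the developing heart, had the smallest p, with 161.6 and 161.2 against 104.2 and 134.2 (log2 difference -0.42 ± 0.17, limma, adjusted p = 0.188). The E proteins Tcf3 (-0.16 ± 0.32), Tcf4 (0.22 ± 0.13) and Tcf12 (0.29 ± 0.16) did not pass. Id4, the remaining Id gene, read 32.3 and 36.5 against 32.9 and 26.9, with overlapping groups.

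In the SPARC family, to which Fstl1 is related, 2 of 5 tested probe sets were higher and 0 lower (median log2 difference 0.51). Smoc2, a calcium-binding matrix protein, read 267.7 and 237.3 against 482.5 and 401.7, a rise of 0.78 ± 0.14 on the log2 scale (limma, adjusted p = 0.0199). Sparcl1, an anti-adhesive glycoprotein, read 651.0 and 588.3 against 854.8 and 919.8 (0.51 ± 0.10, limma, adjusted p = 0.0294). Smoc2 lost its call without non-transgenic replicate 2 (limma, adjusted p = 0.0608) or transgenic replicate 1 (0.0825). Sparcl1 lost it without non-transgenic replicate 2 (limma, adjusted p = 0.0863), transgenic replicate 1 (0.0650) or transgenic replicate 2 (0.107). Sparc itself read 931.5 and 964.8 against 1151.2 and 1260.2 and did not pass (0.34 ± 0.09, limma, adjusted p = 0.0697).

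**Figure D4:**
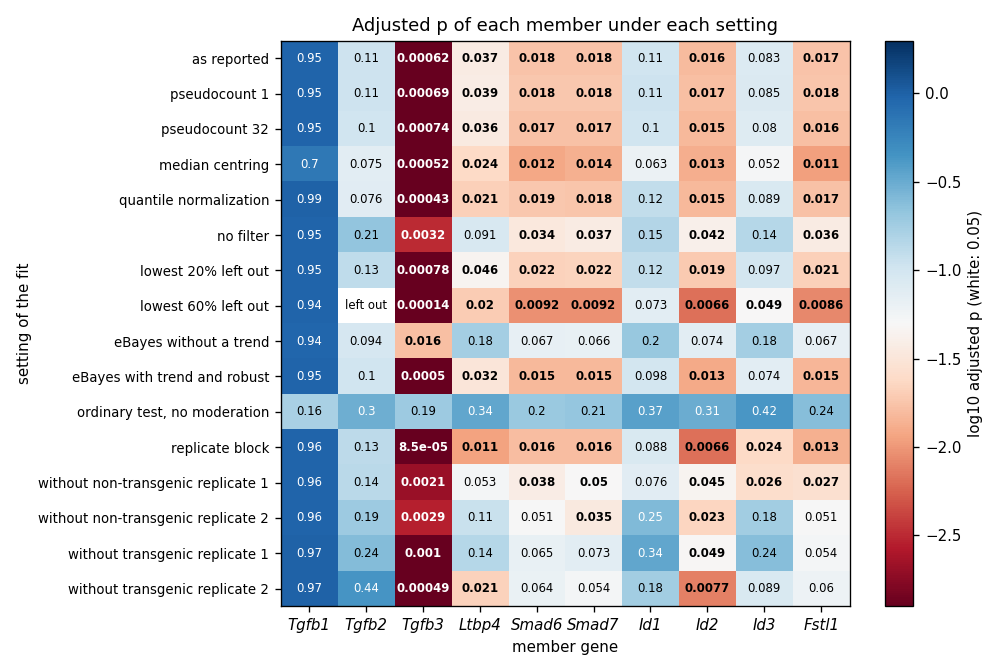
Adjusted p of each tested member (columns) under the fit as reported and 15 alternatives (rows), of which Tgfb2 was tested in 14 (it was removed with the lowest 60% left out), with values below 0.05 in bold and colour on a log10 scale centred on 0.05. Tgfb3 stayed below 0.05 in every row but the ordinary test (0.189), Id2 in all but the ordinary test (0.312) and limma without a trend (0.0743), and Tgfb1, Tgfb2 and Id1 in none of the rows that tested them.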

How the data were processed

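Ventricle RNA from 4 samples was measured on 1 array each. Biotin labelling followed Affymetrix, per the labels. The authors deposited a linear signal intensity for each probe set of an array. Which software and scaling produced it is not given in the sources used here. Detection calls were not used. The mean of each array without its top and bottom 2% was 149.5 to 149.9, so a change shared by most RNA would not be visible. The number of arrays limits the precision.

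Members and gene lists were chosen with earlier results of these data known. Gene names came from the platform annotation (10833 with 1 symbol, 396 with several and left unnamed, 1193 unlisted). RefSeq held 10817 of the gene numbers, with 0 symbols changed. The 66 controls were left out. Values became log2(signal + 9), where 9 is the rounded 20th percentile, and fold changes on this scale understate changes of dim genes. A filter removed the 40% of probe sets with the lowest mean, without regard to group, and 7453 were tested. Groups, taken from the labels, were compared with lmFit and eBayes (variance trend) of limma 3.58.1 (R 4.3.3) in two-sided tests, and p-values were adjusted after Benjamini and Hochberg. The prior carried 5.05 degrees of freedom beside 2 residual ones. Errors are moderated standard errors.

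All members were named, and from the other pathway lists every called gene or, where none was called, the one with the smallest p; other genes were named after their values were seen. On simulated data with 200 of 7453 probe sets changed 2-fold, 53.7% were recovered, with 1.5-fold changes 0% were, and with 4-fold changes 98.0% were. The data held more calls (303 higher and 288 lower), which makes the adjustment less strict than in the simulation. The simulated shares are therefore not those of the data, where for example Ltbp4 was called at 1.37-fold. Alternatives were other pseudocounts, scalings, filters and variance models, a replicate block, and leaving out each array.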

Additional observations from a re-analysis of the deposited data

How the results depend on the processing

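Direction held for the 10 tested members in each alternative that tested them (Tgfb2 was removed with the lowest 60% left out), and no result reversed. For all 10, both transgenic arrays lay above both non-transgenic ones. Leaving out an array, or another pseudocount, filter, variance model or block, could therefore not change their direction. Of the probe sets called in limma, 172 were higher and 157 lower without the filter on low values, 44 and 34 without a variance trend, and 0 and 0 in the ordinary test, where 1175 had an unadjusted p below 0.05. Members called higher were 1 without the trend and 0 in the ordinary test. In those same 2 settings TGF-beta targets were 5 and 0, and receptors, other inhibitors, the SPARC family and the lower call among other ligands were all 0. Without the filter receptors and that lower call were 0 and the SPARC family 1, and with the lowest 60% left out that lower call was 0. Inhbc was itself removed by that filter. Leaving out 1 array gave 125 to 232 probe sets higher and 158 to 191 lower, 2 to 6 members higher, 6 to 9 targets, 0 to 1 receptors, 0 to 2 of the SPARC family, and for other ligands 0 to 1 higher and 0 lower. The lone array of a group was then assumed to vary like the other group. The cause of these shifts was not tested, and each of these fits also had fewer arrays.

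The labels number the samples 1 and 2 in each group. Deviations of same-numbered arrays correlated at -0.06 over 7453 probe sets, so no strong effect shared by same-numbered arrays was seen. With 2 arrays per group this does not show whether the samples were paired. With replicate number as a block, 348 probe sets were higher and 345 lower. Member calls were then 7, Id3 being added (limma, adjusted p = 0.0237). Id3 also passed with the lowest 60% left out (0.0489). Ltbp4 did not pass without the filter on low values (0.0909). A dim signal limits Tgfb2 and the second Tgfb3 probe set, which lie near or below the filter.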

Other observations

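The following probe sets were picked after their values were seen, and all but that of Myl7 lay below the filter on low values and were not tested. Bmp10, a ligand of trabecular and atrial myocytes, read 5.5 and 6.8 in non-transgenic and 20.6 and 23.6 in transgenic ventricle. The atrial light chain Myl7, which was tested, read 177.2 and 260.2 against 616.3 and 531.0 and was higher (limma, adjusted p = 0.00898). The atrial marker sarcolipin (Sln) read 10.1 and 22.8 against 19.6 and 6.6. Bmp2 read 15.3 and 16.1 against 3.4 and 7.1 on its first probe set, while its other 2 probe sets read between 0.2 and 21.8. The cell cycle inhibitor Cdkn2b, a TGF-beta target, read 3.4 and 5.0 against 12.3 and 11.5. Bmp7 read 8.3 and 11.4 against 45.8 and 13.7, so that transgenic replicate 1 alone stood high. Without detection calls it is not known whether any of the untested signals was above background.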
